A study of Homo sapiens with 19 samples.

Results

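The EGF receptor family and its ligands were followed in 2 colorectal carcinoma cell lines treated with protein arginine methyltransferase inhibitors. The set held 9 genes, chosen by symbol through their Ensembl IDs: the receptors EGFR, ERBB2 and ERBB3 and the ligands AREG, EREG, BTC, TGFA, HBEGF and EPGN. All 9 were found in each of the 3 deposited gene count tables, which list 60612 IDs for HCT116, 63086 for WiDr and 82890 for the WiDr long reads. HCT116 and WiDr are established lines grown from human colorectal carcinoma. HCT116 cells received the vehicle DMSO, 10 µM GSK025 (GSK3235025, labelled as an inhibitor of PRMT5) or 5 µM GSK715 (GSK3368715, labelled as an inhibitor of PRMT1), with 3 libraries in each group. WiDr cells received DMSO or 5 µM GSK715, with 3 short-read libraries in each group and 2 in each by Oxford Nanopore (ONT) full-length cDNA sequencing. Every treatment lasted 96 h, and no WiDr library had GSK025. The 19 libraries are labelled as replicates, and nothing states that they came from separate cultures, so the errors measure the spread between these libraries only.

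The receptors are membrane tyrosine kinases that pair with each other when a ligand binds. The ligands are made as membrane precursors, and metalloproteases of the ADAM family release them to act on the same or neighbouring cells. Paired receptors recruit adaptors that switch on a cascade of kinases ending in ERK, and ERK in turn raises the transcription of several of the ligands and of feedback inhibitors. In the colon the family supports growth of the crypt epithelium, and amphiregulin and epiregulin are the ligands most often measured in colorectal tumours in connection with antibodies against EGFR.

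The short-read tables held 64558688 to 66915779 counts per library for HCT116 and 59612948 to 82390261 for WiDr, and the ONT table held 1449698 to 1667813. Levels are given as CPM, which are counts per 1000000 counts of the library, scaled within each table by TMM factors, so a low ONT level rests on few reads. Of 12 colorectal epithelium markers, 9 reached a mean of 1 CPM over the HCT116 table and 10 over the WiDr table of either read type. These means take the DMSO and inhibitor libraries of a table together. CDX1, an intestinal transcription factor, averaged 0.0232 CPM over the HCT116 table. Among 5 immune markers PTPRC and MS4A1 had no count in any HCT116 library, and MS4A1 had none in the WiDr short reads. The summed immune list, led by CD68, ran in HCT116 from 36.3 to 41.0 CPM with DMSO, 22.2 to 24.1 with GSK025 and 73.8 to 84.0 with GSK715, and in WiDr short reads from 16.5 to 19.4 with DMSO and 43.0 to 47.9 with GSK715. The 7 summed stromal markers, led by COL1A1, stayed at or below 27.7 CPM in the short reads. COL1A2, COL3A1, DCN and PDGFRA were at 0 there in WiDr. The stromal sum ran in HCT116 from 17.4 to 19.97 CPM with DMSO, 17.2 to 22.1 with GSK025 and 22.5 to 27.7 with GSK715. In WiDr short reads it ran from 11.4 to 12.3 with DMSO and 16.1 to 18.6 with GSK715. The 4 summed endothelial markers reached at most 3.22 CPM in the short reads, and 2 of them averaged at least 1 CPM over the HCT116 table. The summed epithelial list ran in HCT116 from 4855 to 4958 CPM with DMSO, 7950 to 8366 with GSK025 and 6370 to 6838 with GSK715, and in WiDr short reads from 16072 to 16321 with DMSO and 23315 to 23835 with GSK715. The part of any of these lists in the changes below was not tested. In these bulk libraries, fewer cells that make a transcript and less of it in each cell cannot be told apart.

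The genes of 4 ligands are neighbours. EPGN (ENSG00000182585), EREG (ENSG00000124882), AREG (ENSG00000109321) and BTC (ENSG00000174808) were the only protein-coding genes of the annotation within 486 kb of chromosome 4 (GRCh38, GENCODE 29). EPGN lay at 74308473 to 74315307, EREG at 74365143 to 74388751 and AREG at 74445134 to 74455009, all on the plus strand. BTC lay on the minus strand at 74744759 to 74794686, with 290 kb between it and AREG, against 49.8 kb between EPGN and EREG and 56.4 kb between EREG and AREG. TGFA (ENSG00000163235) lay on the minus strand of chromosome 2 between 70447280 and 70554193, and HBEGF (ENSG00000113070) on the minus strand of chromosome 5 between 140332843 and 140346631. Of the receptors, EGFR (ENSG00000146648) lay on the plus strand of chromosome 7 between 55019021 and 55211628. ERBB2 (ENSG00000141736) lay on the plus strand of chromosome 17 between 39687914 and 39730426, and ERBB3 (ENSG00000065361) on that of chromosome 12 between 56076799 and 56103505. Exons of other genes covered 1.49% of the exonic bases of EGFR (EGFR-AS1), 7.41% of those of ERBB2 (PGAP3 and MIEN1) and 0.343% of those of ERBB3 (AC034102.2). The genes over EGFR and ERBB2 lie on the opposite strand, and whether the counting used strand is not given in the sources used here. AC034102.2 lies on the same strand as ERBB3, so strand could not separate them. Reads in all these stretches therefore cannot be assigned.

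The promoters of AREG, EREG and HBEGF are shown because these ligands had the largest changes of the family in WiDr, and that of EGFR because it had the largest change in HCT116. Each is the stretch of 250 bases before the first start listed in RefSeq (GRCh38.p14): AREG chr4:74444886-74445135 and EREG chr4:74364895-74365144 on the plus strand, HBEGF chr5:140346604-140346853 on the minus strand and EGFR chr7:55018767-55019016 on the plus strand. They are written 5′ to 3′ along the gene, and capitals mark matches on either strand to a TATA box, a cAMP response element, an AP-1 site or a GC box.
AREG: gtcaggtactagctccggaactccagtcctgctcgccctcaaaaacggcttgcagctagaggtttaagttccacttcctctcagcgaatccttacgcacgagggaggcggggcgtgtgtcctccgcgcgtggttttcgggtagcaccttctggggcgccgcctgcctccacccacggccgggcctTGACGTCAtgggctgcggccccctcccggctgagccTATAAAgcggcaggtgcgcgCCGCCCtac
EREG: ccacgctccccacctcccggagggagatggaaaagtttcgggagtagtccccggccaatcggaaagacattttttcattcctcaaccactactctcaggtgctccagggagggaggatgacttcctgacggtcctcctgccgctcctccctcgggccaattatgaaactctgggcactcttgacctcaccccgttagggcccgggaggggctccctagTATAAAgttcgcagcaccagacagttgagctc
HBEGF: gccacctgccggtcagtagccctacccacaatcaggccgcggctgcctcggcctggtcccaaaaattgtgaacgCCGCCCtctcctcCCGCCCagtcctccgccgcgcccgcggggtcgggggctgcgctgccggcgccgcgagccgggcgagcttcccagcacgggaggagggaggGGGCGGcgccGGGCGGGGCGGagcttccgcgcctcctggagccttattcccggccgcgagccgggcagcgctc
EGFR: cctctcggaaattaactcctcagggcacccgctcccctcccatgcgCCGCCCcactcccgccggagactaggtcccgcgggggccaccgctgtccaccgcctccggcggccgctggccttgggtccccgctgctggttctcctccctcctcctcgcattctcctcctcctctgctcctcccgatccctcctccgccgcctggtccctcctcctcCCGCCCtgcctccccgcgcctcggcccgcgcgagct
AREG held a TATA box that began 29 bases before the start, a cAMP response element at 65 and a GC box at 9. EREG held a TATA box at 32 and none of the other motifs. HBEGF held 5 GC boxes, 2 of which overlap, and EGFR held 2. The TATA box was searched as TATAAA. Counting the first listed start of each gene, it stood in the stretch of 3 (AREG, EREG and EPGN) of the 8 members with an entry, all but ERBB3, against 10.7% of all 35116 promoters of the table, which list further starts of some genes too. The cAMP response element, searched as TGACGTCA, stood in that of AREG, against 1.65% of all promoters. The AP-1 site was searched as TGANTCA and stood in that of ERBB2, against 6.57%. A GC box was taken as any match to GGGCGG, and 4 of the 8 held at least 1, against 42.6%. A second listed start of EGFR held 2 TATA boxes, at 146 and 36, and 2 AP-1 sites, at 232 and 136, which brings the members with a match at any listed start to 4 and 2. These matches are a description of the letters and say nothing of binding.

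**Figure D1:**
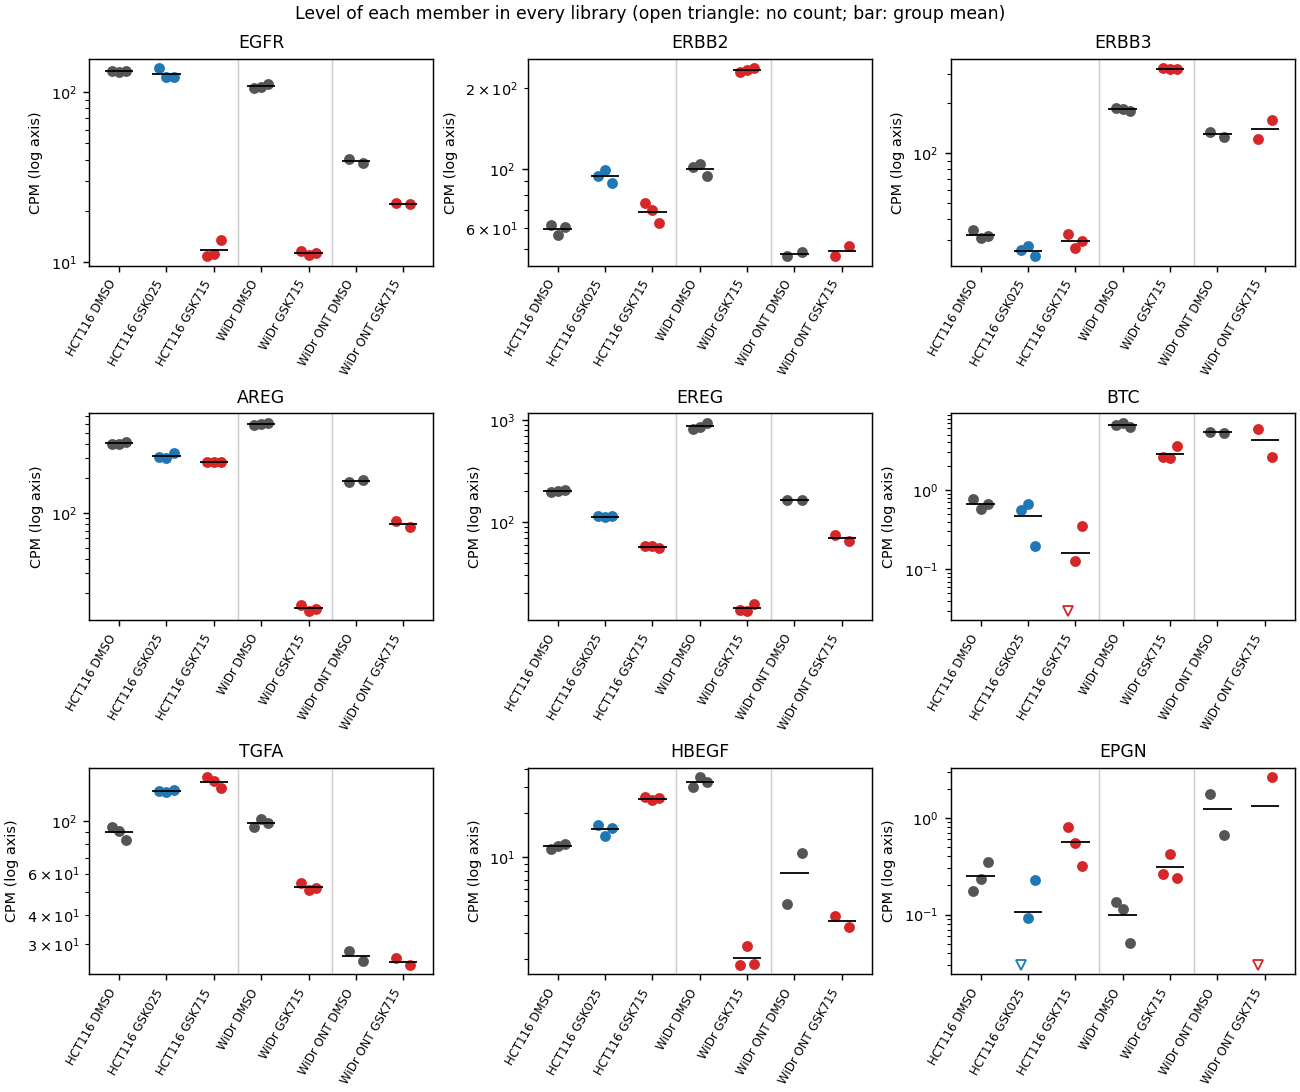
Level of each of the 9 genes in every library, as CPM on a log axis whose range differs between panels. Points are libraries, bars are group means and open triangles mark libraries with no count. EGFR lies between 10.8 and 13.4 CPM in the GSK715 libraries of both lines by short reads, and AREG, EREG and HBEGF lie low in the WiDr GSK715 libraries.

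With DMSO, AREG was the most abundant of the 9 transcripts per exonic length in both lines. Between genes, levels are compared as CPM per kb of exon. AREG stood at 246 ± 4.29 in HCT116 and 362 ± 8.80 in WiDr (SD, n = 3), followed by EREG at 35.3 ± 0.953 and 152 ± 11.1. In HCT116 the order went on with TGFA (18.1), EGFR (10.6), ERBB2 (5.77), HBEGF (3.93), ERBB3 (3.54), BTC (0.238) and EPGN (0.139), and only HBEGF and ERBB3 overlapped as neighbours. In WiDr it went on with ERBB3 (20.4), TGFA (19.9), HBEGF (10.9), ERBB2 (9.69), EGFR (8.60), BTC (2.35) and EPGN (0.0548). There ERBB3 overlapped with TGFA, and HBEGF with ERBB2.

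ERBB3 and the ligands EREG, BTC and HBEGF were higher in WiDr than in HCT116 before any inhibitor. ERBB3, a receptor with a weak kinase that signals through its partners, was measured at 34.2, 30.5 and 31.3 CPM in HCT116 and at 188, 184 and 180 CPM in WiDr. Its log2 fold change between the lines was 2.53 (SE 0.0616, adjusted p = 3.7e-13, edgeR's quasi-likelihood test), which is 5.79-fold. EREG was higher in WiDr by 2.11 (SE 0.0611, adjusted p = 2.0e-12), BTC by 3.31 (SE 0.575, adjusted p = 0.00016) and HBEGF by 1.48 (SE 0.104, adjusted p = 2.1e-08) on the log2 scale. ERBB2 and AREG were higher by 0.76 (SE 0.0582) and 0.56 (SE 0.0376), with adjusted p of 5.2e-08 and 1.2e-08. EGFR was lower in WiDr by 0.29 on the log2 scale (log2 fold change -0.29, SE 0.0614, adjusted p = 0.00091), with 131 to 133 CPM in HCT116 and 106 to 111 in WiDr. TGFA was called higher by 0.14 (adjusted p = 0.031), but the groups overlapped. Of the alternative settings run, only no filter on low counts and the replicate block kept the call. EPGN did not pass (log2 fold change -1.34, SE 0.623, adjusted p = 0.069). In all, 7 members were higher, 1 lower and 1 not passed, beside 36.3% of 21791 genes called higher and 37.8% lower, 74.1% in either direction. The lines were counted in separate tables, so a difference of the line and one of the table cannot be told apart. The members were chosen with earlier results of these data known, which include these DMSO libraries, so the p-values here are descriptions too.

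The inhibitor changes that follow are descriptions. The members were chosen with them in view, so no p-value of a member is given for them, and "rose" and "fell" mark only that the change passed an adjusted p of 0.05 in edgeR's quasi-likelihood test across all genes. Nothing is read from the number of members called. With GSK025 in HCT116, 3 members rose, 3 fell and 3 did not pass, beside 22% of 19751 genes called higher and 22.1% lower, 44.1% in all. With GSK715 in HCT116 the counts were again 3, 3 and 3, beside 22.1% higher and 24.2% lower, 46.4% in all. In WiDr short reads 3 rose and 6 fell, beside 33.6% of 19340 genes called higher and 32.2% lower, 65.8% in all. EPGN, 1 of the 3 that rose, entered the test through its GSK715 libraries, with 15 to 29 counts against 4 to 8 with DMSO. Its call was lost in 9 of 11 alternative settings. In the ONT libraries 6 members passed the filter on low counts, of which 0 rose and 3 fell, beside 4.29% of 15877 genes called higher and 4.52% lower, 8.81% in all. At an unadjusted p under 0.05, edgeR had 0 ONT members higher and 3 lower, and DESeq2 called 0 higher and 2 lower after adjustment. BTC, HBEGF and EPGN did not pass the ONT filter. With scaling by library totals in place of TMM, the share of higher among all genes called went from 47.7% to 32.1% for GSK715 in HCT116 and from 48.7% to 37.5% in the ONT libraries.

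**Figure D2:**
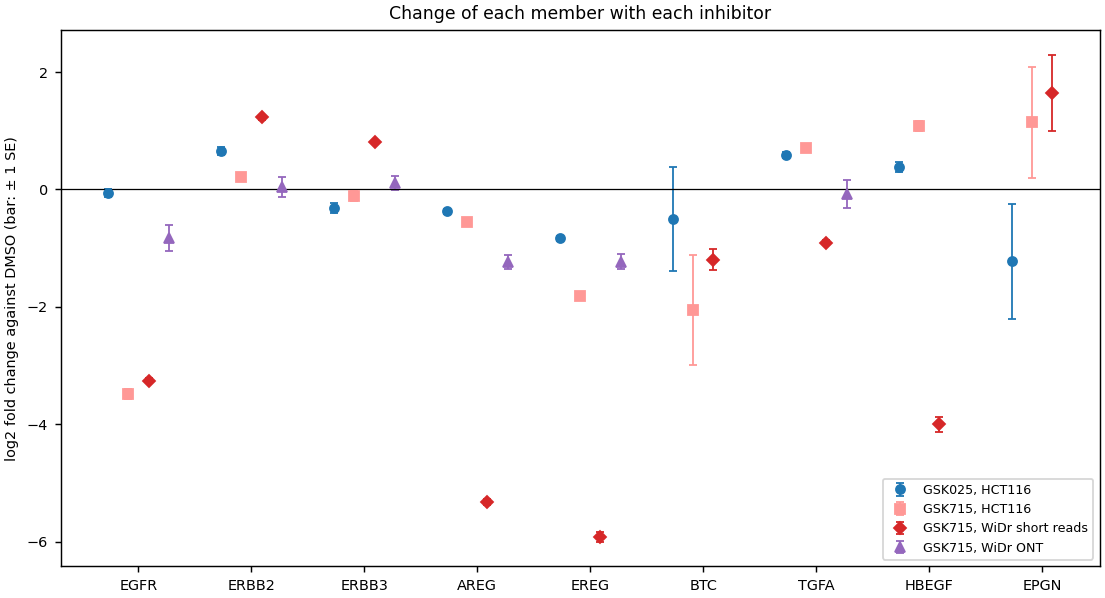
Log2 fold change of each gene against DMSO (vertical axis) for GSK025 and GSK715 in HCT116 and for GSK715 in WiDr by short reads and by ONT. Bars are 1 SE, and BTC, HBEGF and EPGN have no ONT point because they did not pass the filter. EGFR lies at -3.49 and -3.26 with GSK715 in HCT116 and WiDr short reads, and AREG, EREG and HBEGF part between the lines.

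EGFR, the founding receptor of the family, fell with GSK715 in both lines and did not pass with GSK025. In HCT116 it was measured at 133, 131 and 133 CPM with DMSO, at 137, 122 and 121 with GSK025 and at 10.8, 11.2 and 13.4 with GSK715. The GSK715 libraries lay below every other HCT116 library, while the GSK025 and DMSO libraries overlapped. The log2 fold change was -3.49 (SE 0.0794) with GSK715, or 11.2-fold lower, and -0.057 (SE 0.070) with GSK025. In WiDr by short reads, EGFR went from 106, 106 and 111 CPM to 11.5, 10.98 and 11.2, a log2 fold change of -3.26 (SE 0.0423) or 9.57-fold lower. From the most negative log2 fold change upward, EGFR ranked 266 of 19751 genes in HCT116 and 169 of 19340 in WiDr. By ONT it stood at 40.0 and 38.0 CPM with DMSO and 22.2 and 21.8 with GSK715, from 57 to 66.7 and 33 to 34 counts. There EGFR fell by 0.82 on the log2 scale (SE 0.221), but the call was lost with DESeq2, with no filter, and without DMSO replicate 1 or either GSK715 replicate.

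EGFR has long exons in total. At 12.5 kb of exonic sequence it lay at the 94.2 percentile of the genes compared. Across genes, the rank correlation of log2 fold change with exonic length was -0.30 for GSK025 and -0.29 for GSK715 in HCT116 (11191 genes), -0.063 in WiDr short reads (11035 genes) and -0.0094 in the ONT libraries (11817 genes). Genes are not independent replicates, so no p is given, and the part of length in the EGFR change was not tested.

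ERBB2, the receptor without a known ligand of its own and the preferred partner of the others, rose with both inhibitors in HCT116 and in the WiDr short reads. It was measured at 61.4, 56.7 and 60.5 CPM in HCT116 with DMSO, 93.8, 99.1 and 88.7 with GSK025 and 74.7, 70.4 and 62.5 with GSK715. No group overlapped with DMSO. The log2 fold changes were 0.66 (SE 0.067) and 0.22 (SE 0.067). The call with GSK715 was lost with scaling by library totals, at 0.056, and without DMSO replicate 2 (0.18), GSK715 replicate 1 (0.16) or GSK715 replicate 2 (0.21). In the short reads of WiDr, ERBB2 went from 101, 104 and 94.1 to 231, 234 and 237 CPM, a log2 fold change of 1.23 (SE 0.0405). By ONT it stood at 47.2 and 48.7 CPM with DMSO and 47.1 and 51.5 with GSK715, a log2 fold change of 0.042 (SE 0.174) that did not pass and turned to -0.012 with library totals.

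ERBB3 fell slightly with GSK025 in HCT116 and rose with GSK715 in WiDr. In HCT116 it was measured at 25.8, 27.4 and 23.8 CPM with GSK025, below the 30.5 to 34.2 of the DMSO libraries, and at 32.5, 26.7 and 29.6 with GSK715, which overlapped with them. The log2 fold changes were -0.32 (SE 0.0848) and -0.11 (SE 0.0846), and the latter did not pass except with library totals (-0.27). In WiDr short reads ERBB3 went from 188, 184 and 180 to 325, 324 and 324 CPM, a log2 fold change of 0.82 (SE 0.0283). By ONT the groups overlapped, with 135 and 125 CPM against 122 and 159.

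AREG (amphiregulin) and EREG (epiregulin) fell with each inhibitor in every table. AREG was measured in HCT116 at 403, 401 and 414 CPM with DMSO, 305, 301 and 334 with GSK025 and 277, 277 and 278 with GSK715. The 3 groups did not overlap, and the log2 fold changes were -0.37 (SE 0.0412) and -0.55 (SE 0.0413). In WiDr by short reads, AREG went from 582, 595 and 611 CPM to 15.9, 14.1 and 14.5. That is a log2 fold change of -5.33 (SE 0.0505), or 40.2-fold lower, and rank 39 of 19340 from the most negative. By ONT it went from 186 and 195 to 85.7 and 76.0 CPM, a log2 fold change of -1.24 (SE 0.120), or 2.36-fold lower.

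EREG was measured in HCT116 at 197, 200 and 208 CPM with DMSO, 114, 112 and 113 with GSK025 and 58.6, 57.5 and 55.9 with GSK715. The log2 fold changes were -0.83 (SE 0.0397) and -1.81 (SE 0.0409), and no groups overlapped. In the short reads of WiDr, EREG went from 816, 848 and 938 CPM to 13.6, 13.5 and 15.8. The log2 fold change was -5.92 (SE 0.0787), or 60.6-fold lower, at rank 33. By ONT it went from 162 and 164 to 73.9 and 64.8 CPM, a log2 fold change of -1.23 (SE 0.126).

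HBEGF (heparin-binding EGF-like growth factor, also the receptor of diphtheria toxin) rose in HCT116 and fell in WiDr. In HCT116 it was measured at 11.3, 11.97 and 12.3 CPM with DMSO, 16.7, 13.9 and 15.8 with GSK025 and 25.6, 24.4 and 25.3 with GSK715. The 3 groups lay apart, with log2 fold changes of 0.38 (SE 0.0904) and 1.08 (SE 0.0907). In WiDr short reads HBEGF went from 30.3, 35.2 and 32.8 CPM to 1.82, 2.46 and 1.85, a log2 fold change of -4.00 (SE 0.126) or 16.0-fold lower. By ONT it had 8 and 16 counts with DMSO and 6 and 5 with GSK715, too few for the filter.

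TGFA (transforming growth factor alpha) also rose in HCT116 and fell in WiDr. It was measured in HCT116 at 95.2, 91.1 and 83.7 CPM with DMSO, 135, 134 and 137 with GSK025 and 154, 149 and 139 with GSK715. Both inhibitor groups lay above DMSO, with log2 fold changes of 0.59 (SE 0.0540) and 0.71 (SE 0.0541). In WiDr by short reads, TGFA went from 94.5, 103 and 99.0 to 54.7, 50.9 and 52.0 CPM, a log2 fold change of -0.91 (SE 0.0423). By ONT the groups overlapped, at 28.1 and 25.3 CPM against 26.2 and 24.5, and the log2 fold change of -0.080 (SE 0.234) did not pass.

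BTC and EPGN were scarce. BTC (betacellulin, which binds both EGFR and ERBB4) had 53, 39 and 46 counts in HCT116 with DMSO, 37, 43 and 13 with GSK025 and 0, 8 and 22 with GSK715. A count of 0 in that library allows up to 3 counts, or 0.0483 CPM, and covers counting error only. Neither change passed, at -0.51 (SE 0.884) and -2.05 (SE 0.938), but the latter passed with DESeq2 (-2.04) and without GSK715 replicate 3 (-3.36). In the short reads of WiDr, BTC fell from 6.58, 7.06 and 6.24 to 2.58, 2.52 and 3.59 CPM, a log2 fold change of -1.19 (SE 0.178). EPGN (epigen, a weakly binding ligand) stayed at or below 0.804 CPM in every short-read library. It had 8, 7 and 4 counts in WiDr with DMSO and 18, 29 and 15 with GSK715, and its call as higher (log2 fold change 1.65, SE 0.651) was lost without any single library, with DESeq2 and with no filter. In HCT116 it had 12, 16 and 24 counts with DMSO, 0, 6 and 15 with GSK025 and 50, 35 and 20 with GSK715, and neither change passed.

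Summed over the 6 ligands, transcript per kb of exon was lower with each inhibitor than with DMSO in each table. The sum was 304 ± 4.27 CPM per kb with DMSO, 243 ± 11.2 with GSK025 and 217 ± 1.65 with GSK715 in HCT116 (SD, n = 3). In WiDr short reads it was 547 ± 20.3 with DMSO and 24.0 ± 0.810 with GSK715. By ONT it was 155 ± 4.53 and 69.7 ± 5.45 (SD, n = 2). No libraries of an inhibitor and of DMSO overlapped in any table; the sum is a description and was not tested. AREG made up 81.0% of the sum in HCT116 with DMSO, 78.4% with GSK025 and 77.6% with GSK715. TGFA went from 5.97% to 11.2% and 13.7% there, while EREG went from 11.6% to 8.17% and 4.63%. In WiDr by short reads, AREG went from 66.2% to 37.5% and EREG from 27.7% to 10.5%. TGFA went from 3.64% to 44.2% there and was then the leading ligand. By ONT AREG stayed the leading ligand per kb, with 74.8% and 70.3%. Whether division by exonic length suits full-length reads was not tested, and the ONT sums and shares depend on it. In CPM without that division, AREG and EREG averaged 191 and 163 by ONT with DMSO and 80.8 and 69.3 with GSK715.

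**Figure D3:**
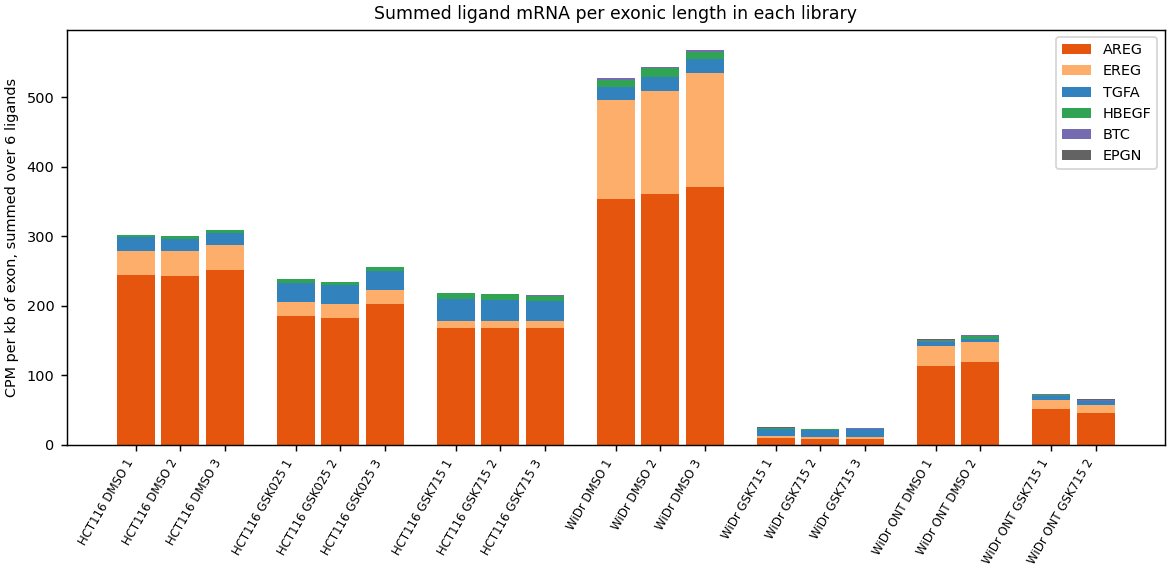
Summed level of the 6 ligands in each library, as CPM per kb of exon, with 1 stacked bar per library coloured by ligand. AREG fills most of each bar except in the 3 WiDr GSK715 short-read libraries, whose sums lie near 24.0.

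The order of the family per exonic length changed with GSK715. In HCT116 EGFR went from the fourth to the seventh place (0.942 CPM per kb), below HBEGF, ERBB2 and ERBB3, and no neighbours overlapped. In WiDr ERBB3 (35.9) and ERBB2 (22.7) took the top of the order, above TGFA (10.6), AREG (8.99) and EREG (2.51). BTC (1.03) and EGFR (0.898) followed and overlapped, then HBEGF (0.677) and EPGN (0.171).

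Set directly against GSK025 in HCT116, GSK715 gave lower EGFR, EREG, ERBB2 and AREG and higher HBEGF. The doses differed, 5 against 10 µM, both comparisons with DMSO share the same DMSO libraries, and this contrast is made of the same libraries. The log2 differences were -3.43 (SE 0.0793) for EGFR, -0.98 (SE 0.0403) for EREG, -0.44 (SE 0.0668) for ERBB2, -0.18 (SE 0.0413) for AREG and 0.70 (SE 0.0898) for HBEGF. The other members did not pass: TGFA 0.13 (SE 0.0537), ERBB3 0.20 (SE 0.0849), BTC -1.55 (SE 0.932) and EPGN 2.36 (SE 0.994). With DESeq2, TGFA, ERBB3 and EPGN passed too. TGFA also passed with only the groups compared (0.13) and without GSK715 replicate 3 (0.18). ERBB3 also passed without GSK715 replicate 2 (0.27), EPGN without GSK025 replicate 3 (3.56) and BTC without GSK715 replicate 3 (-2.85). The 1 higher and 4 lower members stand beside 21.8% of genes called higher and 22.5% lower, 44.3% in all. The split of all genes called moved from 49.2% higher to 39.1% with library totals.

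The response to GSK715 differed between the lines for 4 of the 6 ligands and 2 of the 3 receptors. The difference of the log2 fold changes, WiDr minus HCT116, was -5.15 (SE 0.158) for HBEGF, -4.85 (SE 0.0573) for AREG, -4.18 (SE 0.0891) for EREG and -1.69 (SE 0.0785) for TGFA. It was 0.94 (SE 0.0818) for ERBB2 and 0.86 (SE 0.0833) for ERBB3. These 6 passed the interaction test, and HBEGF and TGFA went in opposite directions in the lines. EGFR differed by 0.16 (SE 0.0925) and did not pass. It did pass with library totals (0.51), with the GSK025 libraries in the fit (0.28) and without HCT116 GSK715 replicate 3 (0.30), the library with 13.4 CPM. BTC (0.79, SE 0.811) and EPGN (0.43, SE 0.832) did not pass, but BTC did without HCT116 GSK715 replicate 3 (2.14). The 2 higher and 4 lower members stand beside 23.2% of 21791 genes called higher and 23.5% lower, 46.7% in all. With library totals the share of higher among genes called went from 49.7% to 69.5% and the median of all genes from 0.12 to 0.47, and the 6 members called kept their direction. The differences are made of the contrasts that were in view when the members were chosen, so they are described and no p is given.

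Long and short reads of WiDr gave changes of very different size. The difference of the log2 fold changes, ONT minus short reads, was 4.74 (SE 0.171) for EREG, 4.14 (SE 0.120) for AREG, 2.48 (SE 0.157) for EGFR and 0.88 (SE 0.170) for TGFA. It was -1.14 (SE 0.122) for ERBB2 and -0.66 (SE 0.113) for ERBB3. In each of these 6 the difference ran against the short-read change. HBEGF had a difference of 2.98 (SE 0.614) that passed in the joint fit, which it entered through its short-read counts. Its ONT side rests on the 8, 16, 6 and 5 counts that were too few for the filter of the ONT libraries alone, and the call was lost without ONT GSK715 replicate 1, which left 2.84. BTC and EPGN did not pass. The 5 higher members, HBEGF included, and 2 lower stand beside 11.2% of 24055 genes called higher and 8.69% lower, 19.9% in all. With library totals the share of higher among genes called went from 56.3% to 36.9%.

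Genes with a large change in short reads had smaller changes by ONT in the median. Of 11602 genes tested by both read types, 204 were called and at least 4-fold lower with GSK715 in short reads, EGFR, AREG and EREG among them. Their median log2 fold change was -2.54 in short reads and -0.70 by ONT, and 94 of them (46.1%) were called lower by ONT. For the 364 genes called at least 4-fold higher the medians were 2.56 and 0.45, and 78 (21.4%) were called higher. Both sets were picked by their short-read change, and single genes went the other way, such as LRP11 with -2.62 (SE 0.0597) in short reads and -2.92 (SE 0.292) by ONT, chosen after its values were seen. The ONT group lies apart from the short reads in depth and in number of libraries, and the part of either in the difference was not tested.

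Other genes of the pathway were taken from lists of known members, and the examples named are, for each direction, the 2 genes called with the lowest adjusted p. The lists too were chosen with earlier results of these data known. The adjusted p of their genes, all from edgeR's quasi-likelihood test, and the counts called are therefore descriptions. The remaining receptor and ligands of the family were at low levels. ERBB4 averaged 0.869 CPM in HCT116 with DMSO and had no count in any WiDr library, where 3 counts in a short-read library would be at most 0.0502 CPM. EGF averaged 0.868 CPM in HCT116 and 7.43 in WiDr with DMSO, and NRG1 0.817 in HCT116 with no count in the WiDr short reads. Of the 5 tested in HCT116, 0 passed with GSK715 by edgeR, by DESeq2 or at an unadjusted p under 0.05. With GSK025, NRG2 alone was higher (log2 fold change 1.09, SE 0.365, adjusted p = 0.027), a call lost with no filter and when either DMSO replicate 1 or 3 or GSK025 replicate 2 or 3 was left out. ERBB4, EGF, NRG1 and NRG4 had log2 fold changes with GSK025 of -0.63, -1.28, 0.096 and -1.42, and with GSK715 of -0.93, -0.73, 0.38 and -0.52. NRG2 had 0.20 with GSK715, and NRG3 did not pass the filter. In the short reads of WiDr, EGF fell by 0.74 (SE 0.157, adjusted p = 0.0020) and NRG4 by 2.45 (SE 0.540, adjusted p = 0.0026) on the log2 scale. NRG4 had 42 to 68 counts there with DMSO and 5 to 17 with GSK715. It entered the test through its DMSO libraries, so the size of its fall rests on few counts.

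Genes that release and traffic the ligands changed in both directions. Of 13 tested in HCT116, 5 rose and 4 fell with GSK025 and 5 rose and 5 fell with GSK715, with medians of 0.084 and 0.19 beside -0.018 and -0.052 over all genes, of which 44.1% and 46.4% were called in either direction. ADAM9 and ADAM10, metalloproteases of the cell surface, fell with both, by 0.76 (SE 0.0424) and 0.76 (SE 0.0451) on the log2 scale with GSK025 and by 0.96 (SE 0.0426) and 0.89 (SE 0.0453) with GSK715. Their adjusted p ranged from 2.6e-09 to 4.9e-08. ADAM19 and FURIN, a proprotein convertase, rose with GSK025 by 0.67 (SE 0.0475) and 0.30 (SE 0.0445), and FRMD8 and TIMP3, an inhibitor of metalloproteases, rose with GSK715 by 1.25 (SE 0.0733) and 0.94 (SE 0.116). In WiDr 4 of 12 rose and 7 fell (median -0.34 beside 0.054), where 33.6% and 32.2% of all genes did. ADAM19 fell by 2.68 there (SE 0.0777, adjusted p = 1.2e-09) and ADAM9 by 1.03 (SE 0.0338, adjusted p = 2.9e-09). FRMD8 and RHBDF2, which accompany ADAM17 to the surface, rose by 0.69 (SE 0.0310) and 0.65 (SE 0.0445). By ONT 0 of 11 passed by edgeR or DESeq2 after adjustment (median -0.28), with 0 higher and 3 lower at an unadjusted p under 0.05 by edgeR. There 1 passed with library totals, 2 without GSK715 replicate 1 and 1 without GSK715 replicate 2.

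Adaptors and relay kinases also moved both ways. Of 26 tested in HCT116, 12 rose and 11 fell with GSK025 (median 0.17) and 9 rose and 11 fell with GSK715 (median -0.019). Of all genes, 44.1% and 46.4% were called in either direction. HRAS rose with GSK025 by 1.00 (SE 0.0871, adjusted p = 1.1e-06), AKT1 rose by 0.57 (SE 0.0513) and NRAS fell by 0.74 (SE 0.05002), all on the log2 scale. With GSK715, the kinase MAP2K1 rose by 0.62 (SE 0.0538) and the phosphatase PTPN11 fell by 0.48 (SE 0.0507). In WiDr 5 rose and 14 fell (median -0.17), beside 33.6% and 32.2% of all genes. MAP2K2, a MEK kinase, and the adaptor SHC1 fell by 1.09 (SE 0.0297) and 1.06 (SE 0.0272), while PLCG1 and the ERK kinase MAPK3 rose by 1.58 (SE 0.0959) and 0.98 (SE 0.0731). By ONT 1 of 25 rose and 2 fell, beside 8.81% of all genes called in either direction. BRAF, a kinase upstream of MEK, rose by 1.08 (SE 0.165, adjusted p = 4.7e-06) by ONT and fell by 0.97 (SE 0.0442, adjusted p = 2.9e-08) in the short reads of the same line. Its mean went from 36.9 to 77.9 CPM by ONT and from 80.5 to 41.2 CPM by short reads. MAP2K2 fell by 0.84 (SE 0.178), which was lost with DESeq2, with no filter and without DMSO replicate 2. NRAS fell by 0.68 (SE 0.213), which was lost with DESeq2, with no filter and without any single library.

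Among inhibitors of the receptors and genes of their turnover, ERRFI1 rose in HCT116 and fell in WiDr with GSK715. ERRFI1 encodes a cytoplasmic protein that binds and inhibits the EGFR kinase and is itself induced by the pathway. It averaged 568 ± 3.04 CPM in HCT116 with DMSO, 411 ± 7.06 with GSK025 and 740 ± 7.67 with GSK715 (SD, n = 3), with log2 fold changes of -0.47 (SE 0.0304, adjusted p = 9.5e-08) and 0.38 (SE 0.0304, adjusted p = 3.8e-07). In WiDr short reads it went from 1306 ± 14.9 to 116 ± 3.15 CPM, a log2 fold change of -3.49 (SE 0.0283, adjusted p = 1.6e-12). By ONT the change was -1.48 (SE 0.219, adjusted p = 2.4e-06), and the call was lost with no filter. Of the 24 genes of the list, 5 rose and 8 fell with GSK025, 10 rose and 7 fell with GSK715 in HCT116, and 7 rose and 13 fell in WiDr, with medians of 0.034, 0.17 and -0.23. The shares of all genes called higher and lower were 22% and 22.1%, 22.1% and 24.2%, and 33.6% and 32.2% in the same order. EPS15, an endocytic adaptor, fell by 1.24 with GSK025 (SE 0.0560) while HGS and EPN1 rose by 0.58 (SE 0.0546) and 0.44 (SE 0.0588). USP8, a deubiquitinase, and SOCS5 fell by 0.97 (SE 0.100) and 0.80 (SE 0.0868) with GSK715 in HCT116, and SH3KBP1 rose by 0.74 (SE 0.0596). In WiDr RNF41, a ubiquitin ligase of ERBB3, fell by 1.47 (SE 0.0336), and the phosphatase PTPRJ and ANKRD13A rose by 1.498 (SE 0.0832) and 0.52 (SE 0.0626). By ONT ERRFI1 was the only one of 22 to pass, beside 8.81% of all genes; 0 rose by edgeR, at an unadjusted p under 0.05 or by DESeq2.

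Genes that ERK induces fell in WiDr and moved both ways in HCT116. Of 9 tested genes of a list of ERK output, 0 rose and 8 fell in WiDr short reads (median -1.58), and of 10 other genes that ERK induces 0 rose and 9 fell (median -1.29), beside a median of 0.054 over all genes, of which 33.6% were called higher and 32.2% lower. No gene of either list was higher at an unadjusted p under 0.05 or with DESeq2. PHLDA1 and the receptor EPHA2 fell by 2.62 (SE 0.0330, adjusted p = 9.9e-12) and 1.98 (SE 0.0313, adjusted p = 3.2e-11) on the log2 scale. The transcription factor FOSL1 fell by 3.53 (SE 0.0494, adjusted p = 1.5e-11), and MYC fell by 2.03 (SE 0.0327, adjusted p = 3.2e-11). By ONT 4 of 8 and 5 of 9 fell, beside 4.52% of all genes, and 0 rose in either list by edgeR, at an unadjusted p under 0.05 or by DESeq2. DESeq2 called 1 and 4 lower there, and with no filter edgeR called 2 and 3. EGR1 fell by 3.27 (SE 0.172, adjusted p = 1.1e-19) on the log2 scale. FOS fell by 1.41 (SE 0.176, adjusted p = 6.0e-08) and DUSP6 fell by 1.39 (SE 0.156, adjusted p = 4.2e-09), and DUSP4 fell by 0.67 (SE 0.128), a call lost with DESeq2.

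In HCT116 the same lists held genes of either direction with both inhibitors. With GSK715, 5 of 10 ERK output genes rose and 2 fell (median 0.21), and 5 of the other 10 rose and 4 fell (median 0.017), beside 22.1% of all genes called higher and 24.2% lower. EPHA2 and ETV5 rose by 0.75 (SE 0.0383) and 0.68 (SE 0.0473), and PHLDA1 and DUSP4 fell by 0.77 (SE 0.0334) and 0.37 (SE 0.0423) on the log2 scale. DUSP5, an ERK phosphatase, and JUNB rose by 1.31 (SE 0.0409, adjusted p = 1.7e-10) and 1.02 (SE 0.0385, adjusted p = 7.5e-10), and EGR1 and SPRED1 fell by 0.58 (SE 0.0416) and 0.67 (SE 0.0645). With GSK025, 8 output genes rose and 2 fell (median 0.43), beside 22% and 22.1% of all genes, led by EPHA2 (1.08, SE 0.0385) and DUSP4 (0.85, SE 0.0424). PHLDA1 fell by 0.75 (SE 0.0334) and EPHA4 by 0.42 (SE 0.142), a call that leaving out DMSO replicate 1 or 2, or replicate 1 or 3 of GSK025, ended. Of the other 10, 3 rose and 4 fell with GSK025 (median -0.027), among them FOSL1 and IER3 upward by 0.50 (SE 0.0498) and 0.18 (SE 0.0477) and FOS and JUNB downward by 0.56 (SE 0.0554) and 0.24 (SE 0.0383). IER3 was lost with library totals. In the test of the difference between the lines in the GSK715 response, 8 of 10 and 9 of 10 genes were lower in WiDr and 0 higher, beside 23.5% and 23.2% of all genes. No gene of either list was higher at an unadjusted p under 0.05 or with DESeq2. The medians of the differences were -1.69 and -1.87, beside 0.12 over all genes.

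**Figure D4:**
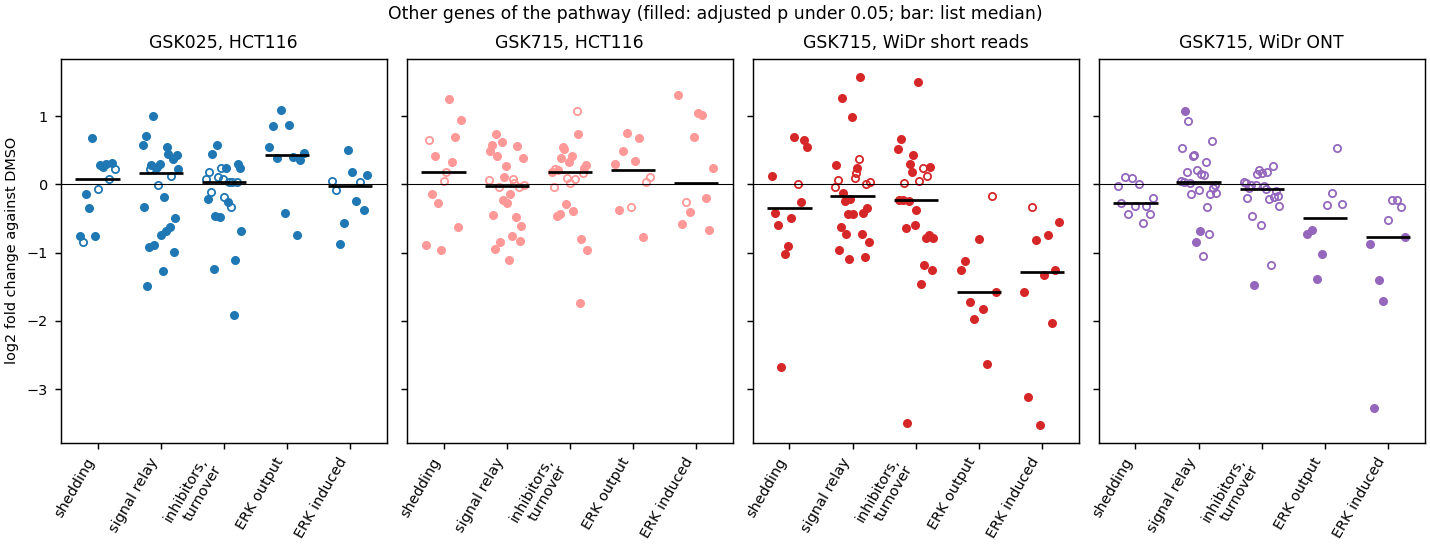
Log2 fold change against DMSO of each tested gene of 5 pathway lists, with a panel for each comparison. Filled points passed an adjusted p of 0.05 and bars are list medians. Both ERK lists lie below 0 in WiDr short reads, with medians of -1.58 and -1.29. In HCT116 the medians of the output list are 0.43 with GSK025 and 0.21 with GSK715, and those of the other list -0.027 and 0.017.

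The genes whose pattern was most like those of EGFR and AREG were sought over the 15 short-read libraries. Likeness was Pearson's r of log2 CPM centred within each line, over 9769 genes with at least 5 CPM in both lines. The libraries share lines and treatments, so r is a description. For EGFR they were LRP11 (0.991), FARP2 (0.991) and NSUN2 (0.990), whose log2 fold changes with GSK715 were -2.26, -0.78 and -0.94 in HCT116 and -2.62, -0.78 and -1.03 in WiDr. For AREG they were ATP11A (0.998), MCL1 (0.997) and EFNB2 (0.996), with -0.59, -0.12 and -0.29 in HCT116 and -4.79, -1.09 and -2.41 in WiDr. Within the family, AREG had r of 0.979 with EREG, 0.927 with HBEGF, 0.668 with TGFA and 0.684 with EGFR, and of -0.898 with ERBB2 and -0.889 with ERBB3. These r pool both lines. Within HCT116, HBEGF (0.38 and 1.08) and TGFA (0.59 and 0.71) rose with GSK025 and GSK715 while AREG fell (-0.37 and -0.55).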

How the data were processed

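Gene expression was measured in 15 short-read poly(A) libraries of HCT116 and WiDr and 4 ONT cDNA libraries of WiDr. The deposited short-read tables hold whole-number counts per gene, and the deposited ONT table holds estimated counts, which were rounded to whole numbers for the tests. Per the submitters' processing notes the tools were HISAT2, StringTie, cutadapt, minimap2, Salmon and DESeq2, on GRCh38. No version is given. In the WiDr short-read table and in the ONT table, the columns marked NC were taken as the DMSO libraries, since the other columns are marked for the inhibitor. The replicate numbers of the NC columns are those of the column names. Gene symbols, positions and exonic lengths came from GENCODE 29 and promoters from RefSeq (GRCh38.p14).

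Each table was fitted whole with edgeR 4.0.16 in R 4.3.3 (filterByExpr with a minimum count of 10 and a minimum total of 15, TMM scaling, quasi-likelihood test), with Benjamini-Hochberg adjustment over all genes and a threshold of 0.05. The HCT116 fit held its 3 groups. The lines were compared in a joint fit of DMSO and GSK715 short-read libraries, and the read types in a joint fit of WiDr. SE is the size of the log2 fold change divided by the square root of the test's F. The members and lists were chosen with earlier results of these data known. Named were the 9 members, per list, direction and comparison with DMSO the 2 genes called with the lowest adjusted p, all other receptors and ligands, and the 3 genes most like EGFR and AREG. Some results on single genes of the relay list are not reported here. Alternatives were RLE size factors, library totals, no filter, DESeq2 1.42.0, a replicate block, other sets of libraries in the fit and leaving out each library. The fits were tested on simulated data. A count of 0 was read as allowing up to 3 counts.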

Additional observations from a re-analysis of the deposited data

Results flagged for a closer look

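The changes with GSK715 were set against each other between lines and between read types by an interaction term in edgeR's quasi-likelihood test, and the 13 differences that passed an adjusted p of 0.05 are collected here. They are made of contrasts that were known when the genes were chosen. Between the lines, WiDr minus HCT116, the log2 fold change of HBEGF differed by -5.15, that of AREG by -4.85, that of EREG by -4.18 and that of TGFA by -1.69. The receptors ERBB2 and ERBB3 differed by 0.94 and 0.86. HBEGF and TGFA rose in HCT116 and fell in WiDr, with no overlap between the GSK715 and DMSO libraries in either line. Between the read types of WiDr, ONT minus short reads, EREG differed by 4.74, AREG by 4.14, EGFR by 2.48, TGFA by 0.88, ERBB2 by -1.14 and ERBB3 by -0.66. HBEGF differed by 2.98, but its ONT side rests on 8 and 16 counts with DMSO and 6 and 5 with GSK715, too few for the filter of the ONT libraries alone, and the call was lost without ONT GSK715 replicate 1, at 2.84. ERBB2 stood at 47.2 and 48.7 CPM by ONT with DMSO and at 47.1 and 51.5 with GSK715, while the short reads gave 94.1 to 104 and 231 to 237. No group held enough libraries for a search for single libraries that stand apart.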

How the results depend on the processing

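Of 1017 values of 69 member results under the alternatives, 962 kept their direction and their side of the threshold, 35 lost the call, 17 gained it and 3 turned direction. The 3 were ERBB2 by ONT, at -0.012 with library totals and from -0.020 (without ONT GSK715 replicate 2) to 0.105 with each library left out, and ERBB3 by ONT, from -0.087 (without that library) to 0.288. None of these passed. NRG1 with GSK025, not called, went from 0.096 to -0.109 without HCT116 DMSO replicate 1 and ranged from -0.181 (without GSK025 replicate 2) to 0.340 with each library left out. The number of members called between GSK715 and GSK025 went from 5 to 8 with DESeq2. With each library left out in turn, the number called was 6 for GSK025, 5 to 7 for GSK715 and 5 to 7 between the inhibitors in HCT116. It was 8 in WiDr short reads, 2 to 3 by ONT, 7 to 8 between the lines with DMSO, 6 to 8 for the difference in response between lines and 6 to 7 between read types. The number of all genes called by ONT went from 1399 to 251 with no filter, 277 with DESeq2, 587 without DMSO replicate 1 and 688 without DMSO replicate 2. Same-numbered HCT116 libraries had correlations of deviations from -0.158 to 0.0227 over 9 pairs, and others from -0.148 to 0.180, which shows no pairing by number. In WiDr the numbers of the DMSO columns come from the column names only. Same-numbered WiDr libraries had correlations from -0.0567 to 0.181 over 3 pairs by short reads, where others ran from -0.308 to 0.190. These few pairs show no pairing by number and do not exclude it. By ONT the values were 0.00165 for same-numbered libraries and -0.00165 for others. With 2 libraries in each group the deviations mirror each other, so the ONT values cannot decide on pairing. With a replicate block 1 member call was lost, that of EPGN in WiDr short reads (log2 fold change 1.67), and no other member call changed. The genes called went from 8707, 9157 and 8746 to 8485, 8881 and 8411 in HCT116, from 12728 to 12351 in WiDr short reads and from 1399 to 1706 by ONT. There the shedding list went from 0 to 1 call and the turnover list from 1 to 2. Scaling by library totals moved the median log2 fold change of all genes from -0.05 to -0.21 for GSK715 in HCT116, from 0.05 to 0.18 in WiDr short reads, from -0.02 to -0.16 between the lines and from -0.04 to -0.24 between read types.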
